A study of Mus musculus with 16 samples.

Results

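The 7 arachidonate lipoxygenase genes Alox12, Alox12b, Alox12e, Aloxe3, Alox8, Alox15 and Alox5 were followed in ear skin of ageing mice. They were found by symbol among the 45706 gene rows of the count table, and all 7 passed the filter on low counts, which kept 21526 genes. The family was chosen by its measured levels and changes between the ages, so its changes with age are given as a description, with no test of their own. RNA came from ear clips of 8 male mice of the inbred strain C57Bl/6J, with no allele or treatment added in either group. A first clip was taken from one ear at 24 months (23.8 to 24.4 months in the labels, where the group is called young) and a second clip from the other ear at 30 months (29.0 to 30.1 months, called old). This gave 16 libraries in 8 pairs, with 5.0 to 6.3 months between the clips of a mouse. Both ages are late in life, and since the earlier clip always came from the ear taken first, age and ear cannot be told apart. The mice are named by the numbers in their titles (13, 14, 21, 29, 43, 50, 64 and 75).

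Lipoxygenases are iron enzymes that add molecular oxygen to polyunsaturated fatty acids and so make lipid hydroperoxides. In the epidermis, Alox12b and Aloxe3 act one after the other on the linoleate of acylceramides, a step needed to bind lipid to the cornified envelope and to seal the skin against water loss, and loss of either gene causes ichthyosis. Alox12e encodes the epidermal enzyme and Alox12 the platelet-type enzyme of the same positional class, which keratinocytes also make. Alox8 is an epidermal enzyme known for its induction by phorbol ester, Alox15 is the leukocyte-type enzyme of macrophages, and Alox5 starts leukotriene synthesis. Free fatty acid for these enzymes is released by phospholipases A2, and glutathione peroxidases reduce the hydroperoxides they form.

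In the annotation of the GRCm38 genome, 6 of the 7 genes lie on chromosome 11 within 1226 kb. Aloxe3 (69125896 to 69149115, plus strand), Alox12b (69156989 to 69169792, plus strand) and Alox8 (69183932 to 69197843, minus strand) span 71.9 kb together, and 7.9 kb separate the end of Aloxe3 from the start of Alox12b. Alox12 (70241457 to 70255353), Alox12e (70315610 to 70322628) and Alox15 (70344152 to 70352031), all on the minus strand, span 110.6 kb together. Alox5 lies alone on chromosome 6 (116410077 to 116461178, minus strand). No other annotated gene of the count table overlaps any of the 7. Of the 50-base sequences of their transcripts, at most 1.79% (Alox8) also occur in another annotated gene, and none do for Alox12b, Alox12e, Alox15 and Alox5. Only exact matches were counted, so copies that differ by a base were not covered.

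The promoters of Alox12e and Alox12, the genes that were lower in every mouse, are printed beside that of Alox12b, which was not. Each is the RefSeq sequence of the GRCm38.p6 build from 250 bases before to 50 bases after the RefSeq start of the gene, which for all 3 lies at another base than the start in the annotation above, read 5′ to 3′ on the strand of the gene, and capitals mark a GC box, the letters GGGCGG on either strand. The stretches are chr11:70322481-70322780 for Alox12e (minus strand), chr11:70255321-70255620 for Alox12 (minus strand) and chr11:69156822-69157121 for Alox12b (plus strand).
Alox12e: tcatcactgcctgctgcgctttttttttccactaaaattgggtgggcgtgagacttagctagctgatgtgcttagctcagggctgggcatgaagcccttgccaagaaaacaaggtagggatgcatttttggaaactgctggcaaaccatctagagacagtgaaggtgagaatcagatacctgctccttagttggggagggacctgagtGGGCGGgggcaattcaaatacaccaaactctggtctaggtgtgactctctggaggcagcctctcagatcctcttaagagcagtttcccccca
Alox12: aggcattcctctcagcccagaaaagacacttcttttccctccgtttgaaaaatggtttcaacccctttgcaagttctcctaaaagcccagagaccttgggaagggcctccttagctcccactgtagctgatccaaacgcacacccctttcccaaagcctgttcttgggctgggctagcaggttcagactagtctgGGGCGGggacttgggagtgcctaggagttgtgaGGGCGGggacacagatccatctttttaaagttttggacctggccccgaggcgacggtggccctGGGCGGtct
Alox12b: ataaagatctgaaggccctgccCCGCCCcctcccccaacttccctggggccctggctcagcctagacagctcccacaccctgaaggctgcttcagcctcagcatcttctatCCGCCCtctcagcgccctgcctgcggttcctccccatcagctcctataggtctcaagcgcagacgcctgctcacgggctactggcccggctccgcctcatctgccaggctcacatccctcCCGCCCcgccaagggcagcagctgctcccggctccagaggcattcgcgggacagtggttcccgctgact
Alox12e held 1 GC box, and Alox12 and Alox12b held 3 each. The promoters of Alox8 and Alox5 held 1 each, and Aloxe3 and Alox15 were not among the promoters used here. Of 32851 mouse promoters of this length, 35.7% held the motif, so a match is common. Neither the TATA box TATAAA (13.6% of promoters) nor the AP-1 site TGANTCA (7.81%) occurred on either strand in any of the 5, so no match overlapped another. Both the genes that were lower in every mouse and the gene that was not held the GC box.

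Alox12e was the most abundant lipoxygenase of the ear per exon length, and the order of the 7 genes was steep. In RPKM (reads per kilobase of exon, scaled to library size), the medians over the 16 libraries were 96.7 for Alox12e, 44.0 for Alox12b, 27.4 for Aloxe3, 12.5 for Alox12, 6.15 for Alox5, 2.79 for Alox8 and 0.197 for Alox15. Alox12e stood above Alox12b in 15 of 16 libraries, with mouse 29 at 30 months as the exception (46.6 against 62.9 RPKM). Alox12b stood above Aloxe3, Aloxe3 above Alox12, Alox12 above Alox5 and Alox8 above Alox15 in all 16. Alox5 stood above Alox8 in 14 of 16. Alox15 was counted only 3 to 31 times per library, so its values carry a large counting error. These levels describe whole skin: fewer cells of a type and less RNA per cell cannot be told apart.

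**Figure D1:**
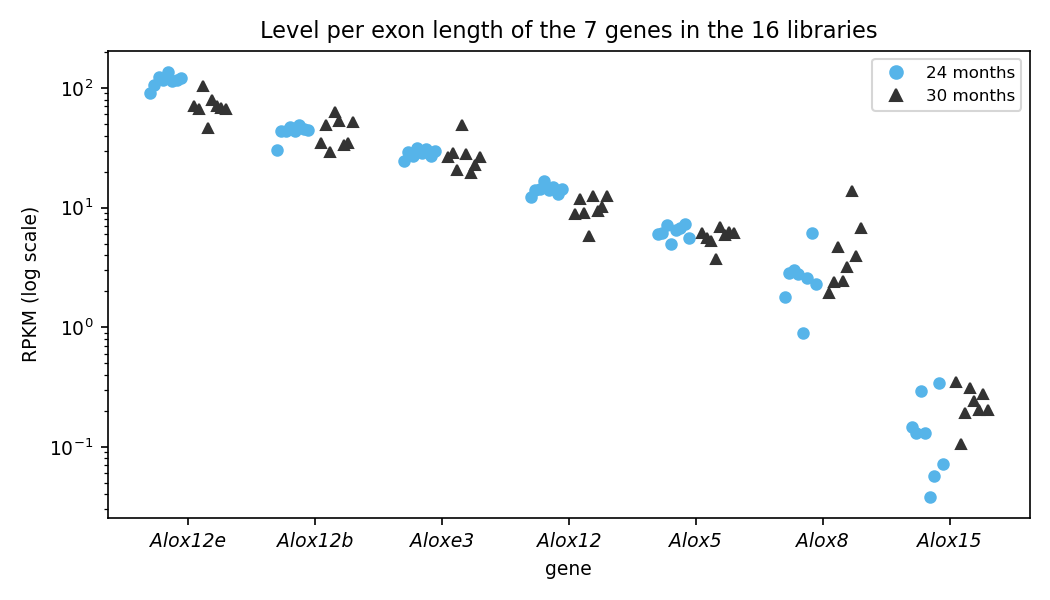
Level of the 7 genes in RPKM (vertical axis, log scale) in each of 8 libraries at 24 months (circles) and 8 at 30 months (triangles), ordered by the median over all 16. The medians run from 96.7 for Alox12e to 0.197 for Alox15, and the 30-month points of Alox12e and Alox12 sit lower than most of their 24-month points.

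Alox12e was lower at 30 months than at 24 months in all 8 mice. At 24 months its level ranged from 257 to 385 CPM (counts scaled to library size with TMM factors) with a median of 331, and at 30 months from 132 to 290.1 with a median of 195. The groups overlapped through a single library, mouse 21 at 30 months (290.1 CPM), and the other 7 lay below the lowest 24-month library. Mouse 29 had the lowest value of all and the largest difference (330 to 132 CPM, a log2 change of -1.32), while mouse 21 had the smallest (-0.26). The means were 327 ± 37.6 CPM and 202 ± 44.3 CPM (SD, n = 8), and the edgeR fit with a term for each mouse gave a log2 fold change of -0.72 (SE 0.11), or 0.609 times the level at 24 months.

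Alox12 was lower in all 8 mice too. Its CPM ranged from 49.9 to 68.1 with a median of 57.5 at 24 months and from 23.5 to 51.1 with a median of 39.7 at 30 months. The groups overlapped through the 30-month libraries of mice 43 and 75 (51.1 CPM each), and the other 6 lay below the lowest 24-month library. Mouse 29 again had the largest difference, from the highest 24-month level of the 8 mice (68.1 CPM) to the lowest 30-month level (23.5 CPM), a log2 change of -1.53 where the other 7 mice ranged from -0.67 to -0.15. The means were 57.8 ± 5.36 and 40.7 ± 9.29 CPM (SD, n = 8) and the log2 fold change was -0.53 (SE 0.14), or -0.39 without mouse 29.

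**Figure D2:**
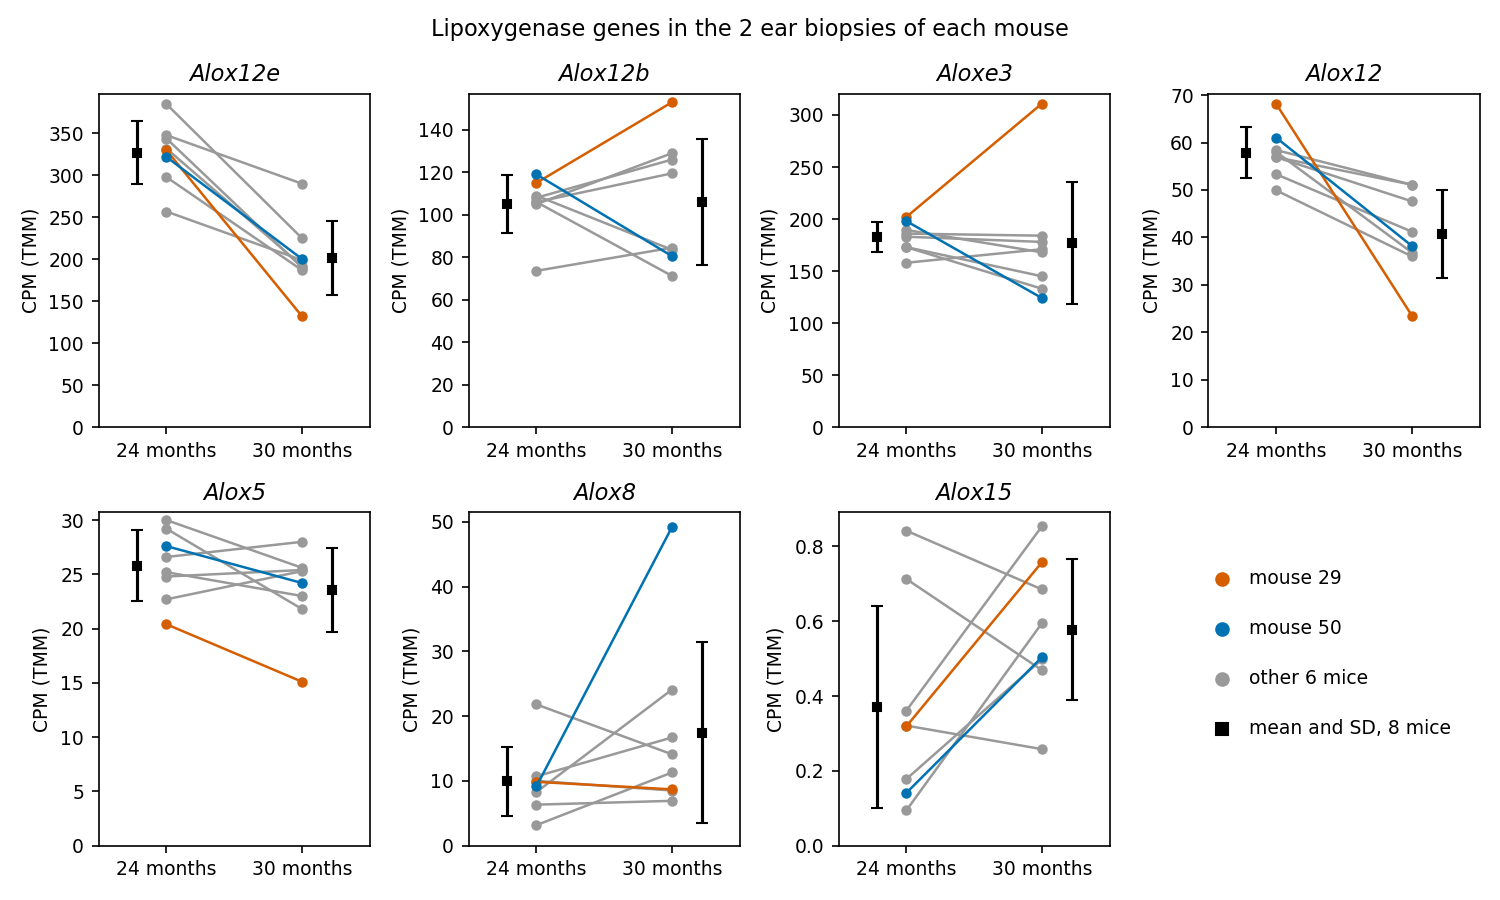
CPM (vertical axis, linear from 0) of each gene in the 24- and 30-month libraries of each mouse, with a line joining the libraries of a mouse and black squares with bars for the mean and SD of 8 mice. All 8 lines of Alox12e and Alox12 run down, those of Alox12b and Aloxe3 fan out from a narrow 24-month range, and mouse 50 sets the top of Alox8 at 49.2 CPM.

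The means of the barrier pair Alox12b and Aloxe3 differed between the ages by less than the SD between mice, while the spread between mice was wider at 30 months. Alox12b ranged from 73.6 to 119 CPM at 24 months (median 107) and from 71.2 to 153 CPM at 30 months (median 102). The groups overlapped, with 4 of the 30-month libraries above the highest and 1 below the lowest 24-month library. Alox12b was higher in 5 mice and lower in 3 (21, 50 and 64), and its log2 fold change was -0.03 (SE 0.13), of which the sign turns when the mouse term or any of those 3 mice is left out.

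Aloxe3 ranged from 158 to 202 CPM at 24 months (median 185) and from 124 to 311 CPM at 30 months (median 169.6). The groups overlapped, and the highest 30-month library, mouse 29 with 311 CPM, stood apart from the next (mouse 14 with 184 CPM). Aloxe3 was lower in 6 mice and higher in 2, and its log2 fold change was -0.10 (SE 0.12). The coefficient of variation between mice was 7.86% at 24 months and 33.1% at 30 months for Aloxe3, 13% and 27.9% for Alox12b, 9.27% and 22.8% for Alox12 and 11.5% and 21.9% for Alox12e. The spread was thus wider at 30 months in these 4 genes, a difference that was not tested.

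Mouse 29 divided the family. Between its clips Alox12 and Alox12e had log2 changes of -1.53 and -1.32, while Alox12b and Aloxe3 had changes of 0.41 and 0.62, the highest of the 8 mice for each. Mouse 50 had lower values of all 4 genes at 30 months, with changes of -0.67 for Alox12, -0.69 for Alox12e, -0.56 for Alox12b and -0.68 for Aloxe3. The ratio of Alox12 to Alox12b in RPKM was 0.290 to 0.403 at 24 months and 0.0914 to 0.308 at 30 months, and it was lower in 7 of 8 mice.

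Alox8 and Alox15 had higher means at 30 months, with a spread that their groups did not clear. Alox8 ranged from 3.17 to 21.8 CPM at 24 months (median 9.50) and from 6.92 to 49.2 CPM at 30 months (median 12.7), and was higher in 5 mice and lower in 3. The groups overlapped in 6 of the 8 30-month libraries, and mouse 50 (9.15 to 49.2 CPM) and mouse 75 (8.27 to 24.1 CPM) exceeded the 24-month range. The log2 fold change was 0.68 (SE 0.34), and 0.42 without mouse 50.

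Alox15 ranged from 0.0942 to 0.842 CPM at 24 months and from 0.258 to 0.854 CPM at 30 months. It was higher in 5 mice, with a log2 fold change of 0.79 (SE 0.36), and 7 of the 8 30-month libraries lay within the 24-month range. The 24-month counts of mice 43, 50 and 75 were 3, 5 and 5, so these ratios rest on few reads.

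Alox5, which starts leukotriene synthesis, ranged from 20.4 to 30.0 CPM at 24 months (median 25.9) and from 15.1 to 28.0 CPM at 30 months (median 24.7). The groups overlapped in 7 of the 8 30-month libraries, with mouse 29 lowest at both ages (20.4 and 15.1 CPM). Alox5 was lower in 5 mice and higher in 3, and its log2 fold change was -0.14 (SE 0.08).

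**Figure D3:**
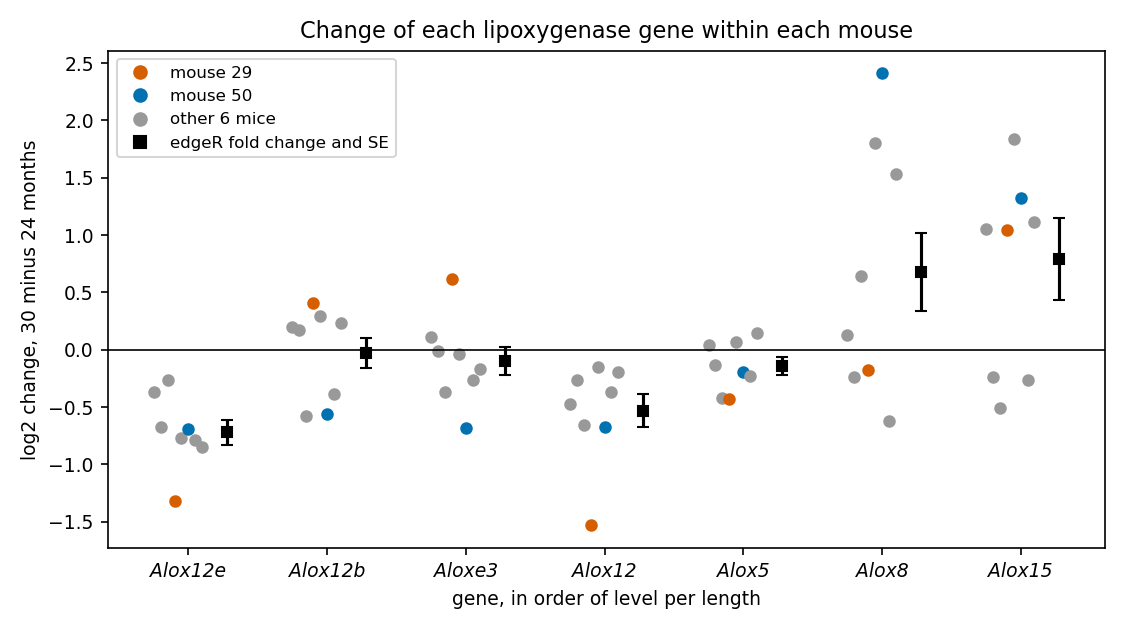
Log2 change of CPM between the clips of each mouse (vertical axis, 30 minus 24 months) for each gene, with the fitted edgeR fold change and its SE as black squares. All 8 points of Alox12e and Alox12 lie below 0, and for the other 5 genes points lie on both sides of it.

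Alox12e held the largest median share of the lipoxygenase message, and with it the total was lower at 30 months. The summed RPKM of the 7 genes was 211 ± 19.7 at 24 months and 163 ± 13.2 at 30 months (SD, n = 8), and it was lower in 8 of 8 mice, with log2 changes from -0.57 (mouse 64) to -0.16 (mouse 13). Most of this difference was that of Alox12e, with a mean of 116 RPKM at 24 and 71.5 RPKM at 30 months. The lower sum is thus largely the same result and not a decline of all 7 genes. The share of Alox12e in that sum was 54.8% ± 2.37 at 24 months and 43.8% ± 9.11 at 30 months. The share of Alox12b was 20.5% ± 1.42 and 26.5% ± 6.23, and that of Aloxe3 13.6% ± 1.02 and 16.9% ± 5.15. Shares of a sum move against each other, so a smaller part of Alox12e raises the others.

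Against the whole table, edgeR's quasi-likelihood test called 0 of 21526 genes (0%) between the ages at a Benjamini-Hochberg adjusted p under 0.05, and so 0 of the 7 lipoxygenase genes. At an unadjusted p under 0.05 it called 1546 genes lower (7.18%), among them Alox12 and Alox12e, and 1047 higher (4.86%), with no lipoxygenase gene among them. Without the mouse term these counts were 1633 lower and 1708 higher, and without mouse 43 they were 1856 lower and 1930 higher. Of all genes tested, 364 (1.69%) were lower in all 8 mice, Alox12 and Alox12e included, and 232 (1.08%) were higher in all 8. DESeq2, run as an alternative, called 228 of the 19439 genes for which it gave an adjusted p (1.17%), and these held Alox12 and Alox12e. Because the family was chosen with these values known, nothing is read from how its counts compare with these shares. The median log2 fold change of all genes was 0.01.

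Across libraries the members of the family differed in pattern, described here by Pearson's r of log2 CPM over the 16 libraries. The libraries share mice and differ in depth and in age, so r is a description. Alox12b and Aloxe3 went together (r = 0.81 over 16 libraries and 0.83 within each age), as did Alox12 and Alox12e (r = 0.79, and 0.45 at 24 and 0.50 at 30 months). Many other genes had a higher r with each of them. Among all genes tested, Aloxe3 ranked 154 by r with Alox12b, and Alox12b 271 with Aloxe3. Alox12e ranked 243 with Alox12, and Alox12 38 with Alox12e. Between these pairs r differed by age. Alox12 and Aloxe3 had r = 0.90 over the 8 libraries at 24 months and -0.53 at 30 months, and Alox12e and Aloxe3 had 0.46 and -0.78. Of the 30-month libraries, mouse 29 had the lowest Alox12 (23.5 CPM) and Alox12e (132 CPM) and the highest Aloxe3 (311 CPM, the next 184 CPM). The negative r at 30 months thus lean on that mouse, and none was computed without it. Whether the relation itself differs by age was not tested. Alox8 and Alox15 had r = 0.48, and 0.77 at 24 and -0.20 at 30 months. Alox5 went in part with Alox12 (r = 0.60, and -0.51 at 24 and 0.86 at 30 months) and with Alox12e (r = 0.50). For the changes within the 8 mice, Alox12 had r = 0.75 with Alox5 and 0.50 with Alox12e. Mouse 29 was lowest in Alox5 too at 30 months (15.1 CPM).

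The genes most like each lipoxygenase were taken as the 3 with the highest r among all genes tested. For Alox12 they were Fam124b and Paqr5 (0.97 each) and Dsg1a (0.96), an adhesion protein of the upper epidermis with near copies in the genome, so that its count is uncertain. Dsg1a was at 1815 CPM at 24 months and 1352 CPM at 30 months and, like Alox12, lower in 8 of 8 mice (log2 fold change -0.46, SE 0.13, edgeR adjusted p = 0.279). For Alox12e they were Clca2 and F830045P16Rik (0.88 each) and Gm14147 (0.87). Clca2 was at 179 and 144 CPM.

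For Alox12b the 3 were Gm5884 (0.94), Bicdl1 and Lad1 (0.93 each), of which Lad1 encodes ladinin, an anchoring protein of epithelia, and was at 221 CPM at 24 and 226 CPM at 30 months. For Aloxe3 they were Otud1 (0.96), Cobl and Fhdc1 (0.95 each), of which Cobl nucleates actin filaments. For Alox8 they were Clec7a (0.86), the beta-glucan receptor of myeloid cells, Dok2 (0.85), an adaptor of blood cells, and the gene without a symbol ENSMUSG00000089672 (0.85). For Alox15 they were Gm42922 (0.85), Setd4 (0.83) and Armc10 (0.80), and for Alox5 Cep295, Zmynd19 (0.86 each) and Foxk2 (0.85). The keratinocyte genes Dsg1a and Lad1 stood with Alox12 and Alox12b, and the myeloid gene Clec7a stood with Alox8. Dsg1a is 1 of the differentiated keratinocyte markers read below, and their mean log2 level did not follow Alox12. Its r with Alox12 was 0.22 over the 16 libraries and -0.1 for the changes within the 8 mice.

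The other genes of the lipoxygenase pathways were read from 7 lists of 67 genes, 65 of them tested. None passed the adjusted threshold of edgeR. At an unadjusted p under 0.05, 6 were higher and 8 lower at 30 months, where 4.86% of all genes tested were higher and 7.18% lower, and the median log2 fold change of the 65 was 0.02, beside 0.01 for all genes.

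Among 15 genes that build the lipid envelope of the cornified layer, 3 were lower at an unadjusted p under 0.05 and 0 higher, with a median log2 fold change of -0.04. Abca12, the transporter that loads lipid into lamellar granules, was at 283 ± 28.3 CPM at 24 and 235 ± 45.7 CPM at 30 months (SD, n = 8), lower in 8 of 8 mice (log2 fold change -0.28, SE 0.07, edgeR adjusted p = 0.225). Ephx3, an epoxide hydrolase of the epidermis that acts on the products of Aloxe3, was at 36.9 ± 2.82 and 29.9 ± 4.11 CPM, lower in 7 of 8 mice (-0.31, SE 0.07, edgeR adjusted p = 0.222). Abhd5, the co-activator of Pnpla1, had a log2 fold change of -0.20 (SE 0.07, edgeR adjusted p = 0.333).

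Sdr9c7, the dehydrogenase that follows Aloxe3, had a log2 fold change of -0.19 (SE 0.09). Cyp4f39, which hydroxylates the very long fatty acids of acylceramides, had one of -0.31 (SE 0.14) with lower values in 7 of 8 mice. Cers3, the ceramide synthase of this pathway, had 0.04 (SE 0.08), Pnpla1, the acylceramide transacylase, -0.08 (SE 0.10), and Nipal4, another ichthyosis gene, 0.15 (SE 0.10). None of these genes passed the adjusted threshold of edgeR, and with DESeq2 Abca12 (adjusted p = 0.0208) and Ephx3 (adjusted p = 0.0256) did.

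Phospholipases A2 had 4 genes lower and 1 higher at an unadjusted p under 0.05 out of 13 tested, with a median log2 fold change of -0.11. Pla2g2f, the secreted enzyme of the upper epidermis, was at 398 ± 33.6 and 325 ± 46.1 CPM (SD, n = 8), lower in 7 of 8 mice (-0.30, SE 0.08, edgeR adjusted p = 0.240). Pla2g4f was at 120.1 ± 11.2 and 80.6 ± 26.4 CPM, lower in 7 of 8 mice (-0.65, SE 0.22, edgeR adjusted p = 0.316), and Pla2g4a, the cytosolic enzyme that frees arachidonate, had -0.33 (SE 0.13). Pla2g5 had -0.44 (SE 0.17), and Pla2g12a, the gene with higher values, 0.30 (SE 0.12).

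The 5 hydroperoxide reductases had 3 genes higher and 0 lower at an unadjusted p under 0.05. Gpx3, the secreted glutathione peroxidase, was at 77.5 ± 30.2 and 186 ± 165 CPM (1.0, SE 0.35, edgeR adjusted p = 0.328, and 0.72 without mouse 29), and Gpx4, which reduces hydroperoxides within membranes, at 75.3 ± 9.36 and 89.2 ± 12.2 CPM (0.24, SE 0.08, edgeR adjusted p = 0.312). Each was higher in 7 of 8 mice, as was Gpx2 (0.64, SE 0.26). The mean log2 level of this list was higher in 8 of 8 mice, by 0.39 ± 0.26 (SD), with the highest change in mouse 29 (0.83).

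Of the 9 leukotriene enzymes, 2 were higher and 0 lower at an unadjusted p under 0.05. Mgst2, a microsomal glutathione transferase, was higher in 8 of 8 mice (0.26, SE 0.08, edgeR adjusted p = 0.304), and Dpep1, a dipeptidase that cleaves a cysteinyl leukotriene, in 7 of 8 (0.65, SE 0.20, edgeR adjusted p = 0.288). Alox5ap, which presents arachidonate to Alox5, was at 14.5 ± 2.68 and 17.9 ± 9.91 CPM (0.19, SE 0.21). Of the receptors of lipoxygenase products, 0 of 6 tested passed an unadjusted p of 0.05, and Oxgr1 had no count in any library.

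The cyclooxygenases use the same fatty acid. Ptgs1, the constitutive one, was at 209 ± 26.0 and 192 ± 22.1 CPM (-0.12, SE 0.08), and Ptgs2, the inducible one, at 1.88 ± 0.522 and 2.31 ± 0.959 CPM (0.22, SE 0.26). None of the 11 prostanoid enzymes passed an unadjusted p of 0.05. Of 6 epoxide hydrolases and epoxygenases 1 did, Cyp2j6, with -0.22 (SE 0.09).

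**Figure D4:**
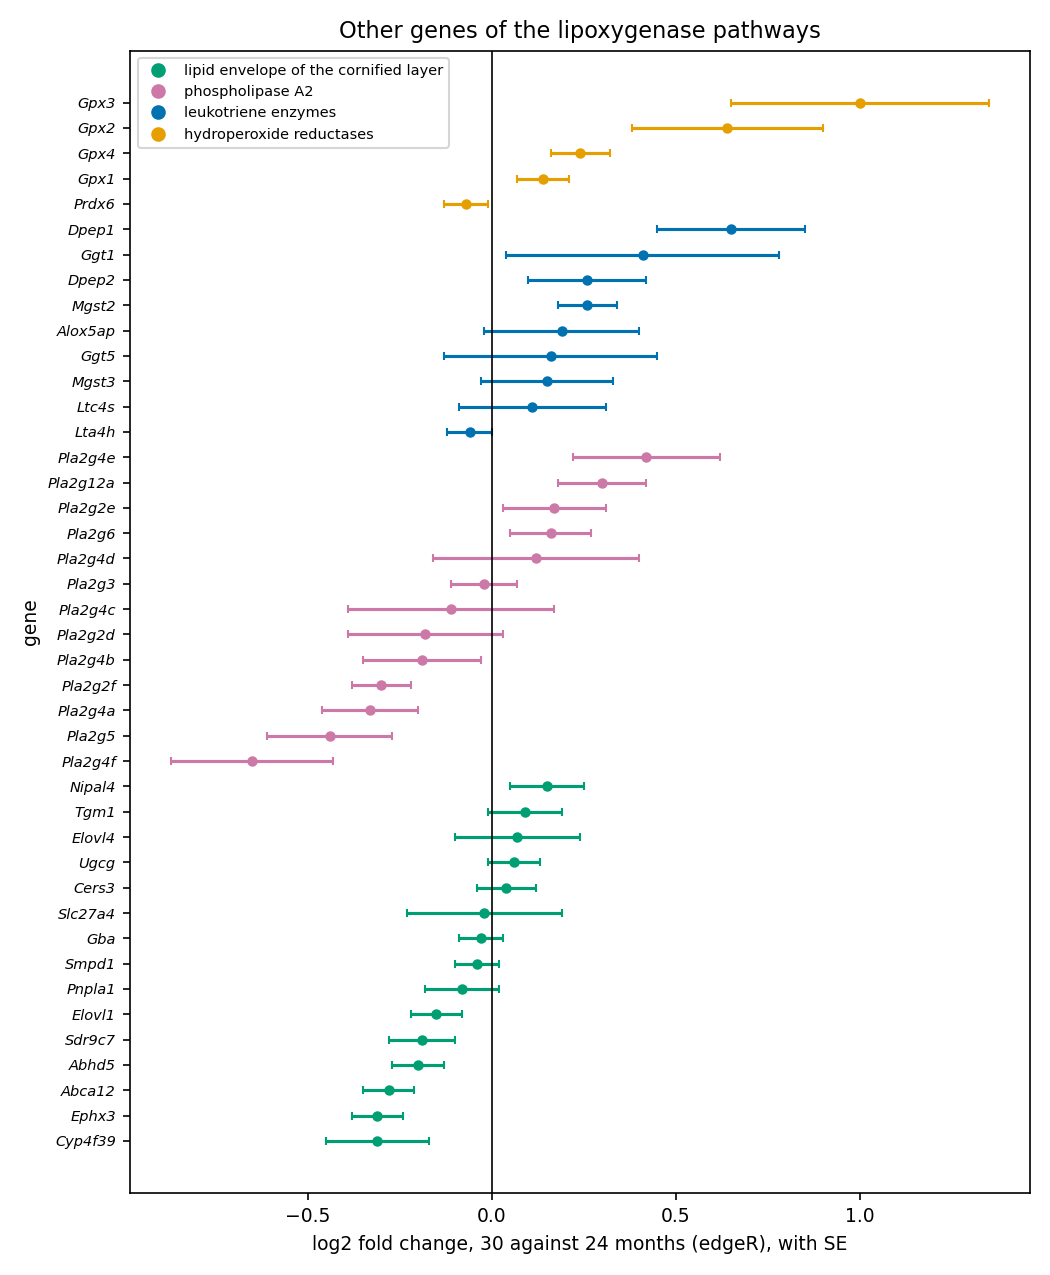
Fitted edgeR log2 fold change with SE (horizontal axis, 30 against 24 months) of the tested genes of 4 of the 7 lists, coloured by list. Most genes lie within 0.5 of 0, Gpx3 lies farthest to the right at 1.0, and Pla2g4f farthest to the left at -0.65.

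Gene lists of pathways and cell types were set beside each lipoxygenase over the 16 libraries. Beside each r over libraries stands the r of the changes within the 8 mice, which leaves out the difference between the ages. Alox12b had r = 0.93 with the lipid envelope list (changes 0.88), and 0.72 with differentiated keratinocyte markers, where the changes had only 0.13. Aloxe3 had 0.89 with epoxide hydrolases and epoxygenases (changes 0.85) and 0.72 with the lipid envelope list (changes 0.60). Alox12 had 0.80 with cartilage markers (changes 0.65), -0.89 with hydroperoxide reductases (changes -0.79) and 0.75 with phospholipases A2 (changes 0.67). Mouse 29 had the lowest change of Alox12 (-1.53) and the highest of the hydroperoxide reductases (0.83). It also had the highest change of Aloxe3 (0.62) and of the epoxide hydrolases and epoxygenases (0.53). No r of these lists was computed without mouse 29. Alox12e had 0.72 with cartilage markers and -0.79 with hydroperoxide reductases, but its changes had 0.06 and -0.37. Alox8 had 0.77 with macrophage (changes 0.67), 0.70 with T cell (changes 0.68) and 0.55 with fibroblast markers (changes 0.77). Mouse 50 had the largest change of Alox8 (2.41) and of the macrophage (1.88), T cell (2.5) and fibroblast lists (1.89). These r thus lean on that mouse, and none was computed without it. Alox15 had 0.74 with neutrophil markers (changes 0.51). Alox5 had 0.66 with cartilage markers (changes 0.45) and -0.79 with epoxide hydrolases and epoxygenases (changes -0.50).

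**Figure D5:**
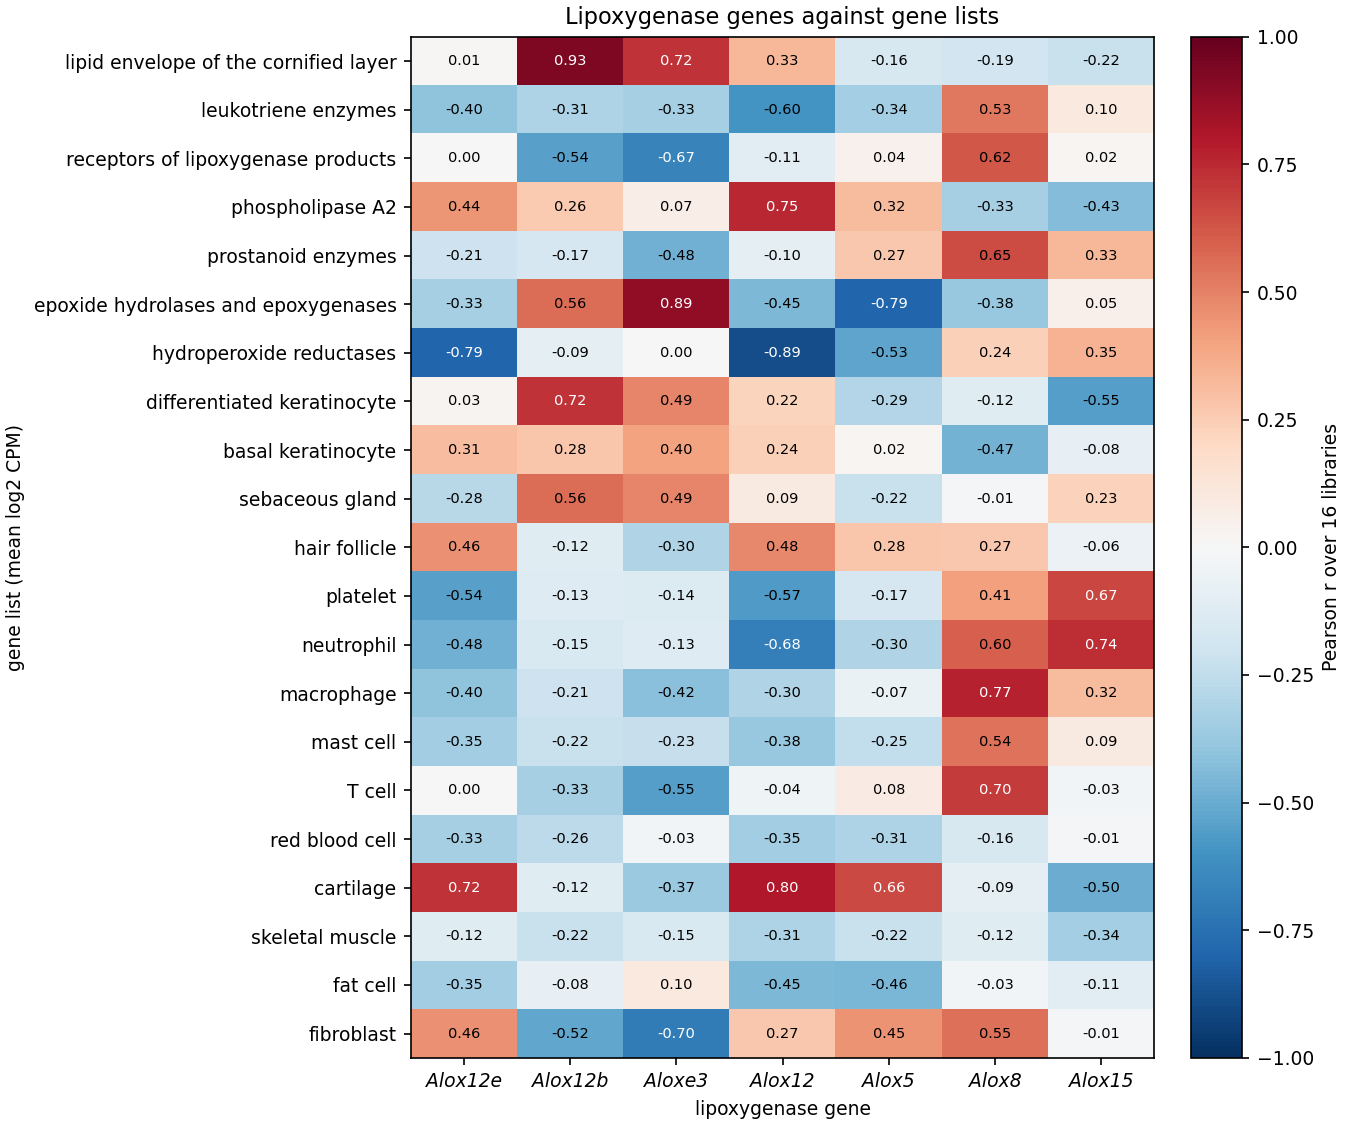
Pearson's r over 16 libraries between log2 CPM of each lipoxygenase gene (columns) and the mean log2 CPM of each gene list (rows), from blue (-1) through white (0) to red (1). The strongest positive cell is Alox12b with the lipid envelope list (0.93) and the strongest negative one Alox12 with the hydroperoxide reductases (-0.89).

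Cell type markers that moved beside these genes are given with their levels. The labelled tissue carried its own markers, since the 17 differentiated keratinocyte markers summed to 21678 to 28665 CPM at 24 and 19489.5 to 28346 CPM at 30 months. Of the 16 tested, 2 were higher and 4 lower at an unadjusted p under 0.05, where 4.86% of all genes tested were higher and 7.18% lower. Among them Krt1, a keratin of the suprabasal layers, was higher in 8 of 8 mice (1.01, SE 0.25, edgeR adjusted p = 0.222), and its partner Krt10 had a log2 fold change of -0.36 (SE 0.13). The others past that p were Dsg1a (-0.46), Dsc1 (-0.45) and Flg2 (-0.33), all lower, and Asprv1 (0.25), higher. The median log2 fold change of the 16 was -0.02, so the list was mixed. The part of keratinocyte content in the lower Alox12e (-0.72) and Alox12 (-0.53) was not tested.

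The 8 cartilage markers summed to 124 to 229.8 CPM at 24 and 95.9 to 165 CPM at 30 months. Of the 7 tested, 6 were lower at an unadjusted p under 0.05, where 7.18% of all genes tested were lower. The median log2 fold change of the 7 was -0.61, and none of the 8 markers was at 0 in all libraries. Col2a1, the main collagen of cartilage, was lower in 8 of 8 mice (-0.64, SE 0.11, edgeR adjusted p = 0.141). The mean log2 level of the list was lower in 6 mice and higher in mice 64 and 75 (0.31 and 0.04), and in these 2 mice Alox12e was lower by log2 changes of -0.79 and -0.85 and Alox12 by -0.37 and -0.19. The part of cartilage content in the lower Alox12 and Alox12e was not tested.

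Platelet markers were read beside Alox12, the platelet-type gene. The 8 markers summed to 51.7 to 80.2 CPM at 24 and 49.6 to 104 CPM at 30 months, the median log2 fold change of the 6 tested was 0.18, and none was at 0 in all libraries. Over the 16 libraries r was -0.57, and for the changes within mice it was -0.38. The 5 eosinophil markers, of cells in which lipoxygenases of the Alox15 kind are known, summed to at most 0.464 CPM in any library and none passed the filter.

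Of the other marker lists, hair follicle had 1 gene higher and 3 lower of 10 tested at an unadjusted p under 0.05 (median log2 fold change -0.54), basal keratinocyte 1 lower of 7 (-0.16) and sebaceous gland 1 lower of 10 (0.07). Neutrophil (1 of 7, median 0.50) and mast cell markers (1 of 9, 0.13) each had 1 gene higher. Red blood cell (0.20), skeletal muscle (1.05), fat cell (0.31) and fibroblast markers (-0.53) had none past that p. Skeletal muscle markers ranged most widely, from 648 to 8886 CPM in sum at 24 months. Over the 16 libraries they had an r between -0.34 and -0.12 with the 7 genes. The r of the changes within mice ran more widely, from -0.70 for Alox15 and -0.53 for Alox8 to 0.52 for Alox12e.

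Immune and stromal markers were read beside Alox8, and were highest in the library with the most Alox8. In mouse 50 at 30 months, with 49.2 CPM of Alox8, the 9 T cell markers summed to 246 CPM (53.8 at 24 months), the 12 macrophage markers to 2330 CPM (693 at 24 months) and the 6 fibroblast markers to 13993 CPM (3901 at 24 months). These were the highest sums among the 16 libraries for all 3 lists. In mouse 64 at 24 months, with the highest Alox8 of that age (21.8 CPM), they were 65.4, 1045 and 7454 CPM. Other libraries followed this order only in part. Mouse 75 at 30 months had the next highest Alox8 (24.1 CPM). Its macrophage sum was 1350.1 CPM, above its own 24-month sum (807 CPM). Its T cell sum was 54.9 CPM (54.6 at 24 months), and its fibroblast sum of 4242 CPM lay below its own 24-month sum (4859 CPM). Mouse 13 at 24 months had the highest macrophage sum of that age (1197 CPM) with 6.33 CPM of Alox8. None of the T cell and macrophage markers was at 0 in all libraries, and none passed an unadjusted p of 0.05 between the ages. Their part in the level of Alox8 was not tested.

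The change of each gene between the clips was compared with the age at which the mouse later died, a measure that had no part in choosing the family. Spearman's rho over 8 mice was 0.59 for Alox12 (exact permutation p = 0.135, adjusted over 7 genes 0.948), and the relation did not pass the threshold. Pearson's r for Alox12 was 0.55 (exact permutation p = 0.141, adjusted 0.985), and 0.45 without mice 43 and 64, whose ages at death lay farthest from the median. The rho of the other genes ran from -0.22 for Alox8 to 0.29 for Alox5, with adjusted p of 0.964 each (exact permutation, two-sided), and 0 of 7 relations passed. Pearson's r ran from -0.19 for Alox8 to 0.35 for Alox5 with adjusted p of 0.985 (exact permutation). For Alox12e rho was 0.13 and r was 0.34, and r was 0.71 without those 2 mice (exact permutation p = 0.111).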

How the data were processed

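Reads of 16 ear libraries (TruSeq RNA v2, which does not mark strand, single-end 50 bases) were mapped by the authors to GRCm38. The submitters' processing notes name mm10, CASAVA 1.8.4, TopHat2 2.1.0 and HTSeq 0.6.1p1, and the strand setting of the counting was not given in the sources used here. The deposited values are raw read counts for each gene and library, without normalization. Libraries held 27494852 to 35527197 reads on genes at 24 months and 22967222 to 36162431 at 30 months. The 5 summary lines of the table, with 18.74% to 21.07% of the reads, were left out. The table held 0 columns of other samples. Symbols, positions and exon lengths came from GENCODE M21, which held 45143 of the 45706 identifiers, and promoters of 5 of the 7 genes from RefSeq.

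Counts were tested with edgeR 4.0.16 in R 4.3.3 (filterByExpr, TMM, quasi-likelihood test, a term for each mouse). Libraries with the same number come from the same animal. Deviations from the age means had a median correlation of -0.03 within a mouse and -0.017 between mice. Single libraries were compared as log2 of CPM + 0.1, with Python 3.11.15, numpy 2.4.6, scipy 1.17.1 and pandas 2.3.3. Ages at death were read from the study's sample sheet and entered an exact permutation test (two-sided). Correlations across libraries carry no p.

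The 7 genes, the 7 pathway lists and the 15 marker lists were chosen with earlier results of these data known. Named genes were the 7 members, the 3 genes most like each, and pathway genes past an unadjusted p of 0.05 or of set roles. Marker genes with values (Krt1, Krt10, Dsg1a, Dsc1, Flg2, Asprv1, Col2a1) were picked after they were seen. The alternatives were DESeq2 1.42.0, its size factors, no filter on low counts, no mouse term, age as a covariate, other scales of the change, and each mouse left out. In counts simulated for 21526 genes, edgeR called 50, 32, 44 and 50 of 50 genes changed by log2 -2, -1, 1 and 2, and 10 of 21326 unchanged ones. The simulated counts took their dispersion from the fitted trend, with a small effect of each mouse shared by both its clips. They held no difference in tissue content between clips, so they do not give the power or error rate of the real comparison.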

Additional observations from a re-analysis of the deposited data

Results flagged for a closer look

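In groups of 8 mice, 5 of 21 sets of lipoxygenase values had a highest or lowest mouse far from the others by Dixon's gap criterion. Chance alone gives about 1.05 of 21, and since the family was chosen with these values known, nothing is read from the number. The log2 change of Alox12 was lowest in mouse 29 (-1.53, the next -0.67). Aloxe3 at 30 months was highest in the same mouse (311 CPM, the next 184 CPM). Alox12b at 24 months was lowest in mouse 13 (73.6 CPM, the next 105 CPM). Alox8 was highest in mouse 64 at 24 months (21.8 CPM, the next 10.7 CPM) and in mouse 50 at 30 months (49.2 CPM, the next 24.1 CPM). The sets share libraries, so these are not 5 separate events.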

How the results depend on the processing

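With DESeq2 in place of edgeR, 228 genes passed the adjusted threshold in place of 0, 2 of them lipoxygenase genes (Alox12 and Alox12e) and 3 of them other pathway genes (Abca12, Ephx3 and Pla2g2f). Without the replicate block on the mouse, 3 genes passed (2 higher and 1 lower), none of the 7, and the block changed no other call named here. With each mouse left out, 0 genes, 0 lipoxygenase genes, 0 other pathway genes and 0 relations with age at death passed, and 1860 to 3786 genes had an unadjusted p under 0.05 (2593 with all mice). The excess of lower over higher genes at that p (1546 against 1047) turned without the block (1633 against 1708) and without mouse 43 (1856 against 1930). The fold changes of Alox12e (-0.78 to -0.63) and Alox12 (-0.58 to -0.39) stayed below 0 in those fits, and those of Alox8 (0.42 to 0.87) and Alox15 (0.60 to 1.01) above it. That of Alox12b turned sign without the block (0.01) and ran from -0.09 to 0.05 with a mouse left out. The rho of Alox15 with age at death became 0.05 with log2 of CPM + 1 and 0.01 per month. With a mouse left out, rho ran from -0.29 to 0.36 for Alox12b, -0.47 to 0.29 for Aloxe3, -0.16 to 0.32 for Alox12e, -0.46 to 0.18 for Alox8 and -0.54 to 0.14 for Alox15. The cause of these differences was not tested. The 3 to 31 counts of Alox15 limit what its values can show.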
